A study of Rattus norvegicus with 8 samples.

Results

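Voltage-gated calcium channels are built around a pore-forming alpha1 subunit, and the gene that supplies it decides the channel type. The report covers the 8 pore subunit genes Cacna1a, Cacna1b, Cacna1c, Cacna1d, Cacna1e, Cacna1g, Cacna1h and Cacna1i, chosen by their symbols among 28909 symbols of the count table. All 8 were among the 14309 genes that passed the filter on low counts. The other pore genes, Cacna1f and Cacna1s, stayed under that filter, with at most 17 and 2 reads in a library.

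As background, L-type channels (Cacna1c and Cacna1d) open on depolarisation and couple calcium entry to gene transcription in the soma and dendrites. P/Q-type (Cacna1a) and N-type (Cacna1b) channels trigger transmitter release at presynaptic terminals, and R-type channels (Cacna1e) contribute to dendritic and presynaptic calcium entry. T-type channels (Cacna1g, Cacna1h and Cacna1i) open near the resting potential and shape burst firing.

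The RNA came from primary hippocampal neurons of embryonic Sprague-Dawley rats, grown on porous filter inserts on which somata stay on the upper side and processes, that is axons and dendrites, grow to the lower side. Picrotoxin (PTX), a GABA-A receptor antagonist that raises network activity, or its vehicle was applied for 48 h, from day 18 to day 20 in vitro. Ribosome-depleted total RNA was sequenced from somata and from processes, giving 4 conditions (somata control, somata PTX, processes control, processes PTX) with 2 libraries each. No labels state that the libraries of a condition came from separate cultures, so p-values measure only the spread between these libraries, which may be technical.

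Library totals ranged from 12290890 to 18455662 counts, but outside the mitochondrial genome the process libraries held 4702054 to 5491237 counts against 9517542 to 11227599 in somata. The 8 genes together received 6945 to 9759 reads in a somata library and 2067 to 2973 in a process library. The cultures were mixed. Summed levels of 6 neuronal markers were 1650 to 2060 CPM in somata and 3910 to 5450 in processes, and those of 6 astrocyte markers were 2600 to 3910 and 10500 to 13900. The sums followed their largest genes. Map2 averaged 936 CPM in control somata and 4609 CPM in control processes, and Gfap 1685 and 10250 CPM. By the threshold given below, Snap25, Syt1, Tubb3, Slc1a3 and Gja1 were lower in control processes, and Rbfox3 and S100b were higher. Nefl, Aqp4 and Aldh1l1 passed in neither direction. Oligodendrocyte lineage markers summed to 185 to 356 CPM, and vascular and smooth muscle markers to 23.7 to 58 CPM. In the latter list the endothelial marker Cldn5 was at 0 in every library, but Tagln, Myh11 and Pdgfrb passed the filter. Microglial markers summed to at most 1.51 CPM. In such bulk samples, fewer cells of a type and less RNA per cell cannot be told apart.

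Levels are given below as CPM (counts scaled to a fixed library total) after TMM scaling, which sets libraries on a scale where most genes are level. They were not divided by transcript length, so values of different genes are not compared. Fold changes are log2 values from the quasi-likelihood test of edgeR, with standard errors (SE), and a gene was called at a Benjamini-Hochberg adjusted p under 0.05 over all 14309 genes.

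**Figure D1:**
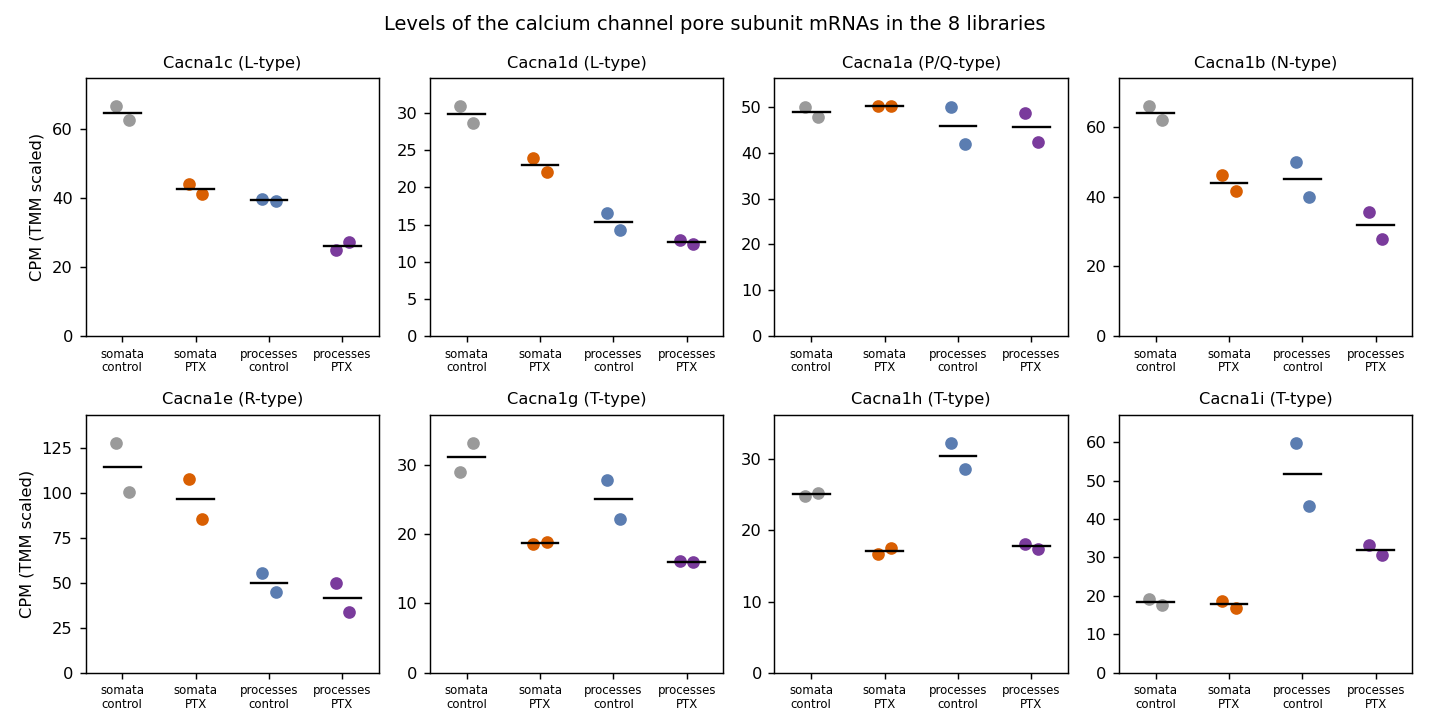
Level of each pore subunit mRNA (y axis, CPM after TMM scaling, each panel with its own scale from 0) in the 2 libraries of each condition (points), with the mean as a line. Cacna1b, Cacna1c, Cacna1d, Cacna1g and Cacna1h were lower in both PTX libraries than in both control libraries of the same compartment. With each compartment taken alone, the pattern was found in 25% of all tested genes in somata and in 22.3% in processes. The share of genes with the pattern in both compartments is not given here, so these percentages are no background for the genes named. Cacna1i was highest in control processes.

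The first comparison asked how PTX changed the channel mRNAs within the somata. Of the 8 genes, 3 were lower and none was higher, where 1.5% of all tested genes were called lower. These were the L-type gene Cacna1c and the T-type genes Cacna1g and Cacna1h. The median log2 fold change of the 8 genes was -0.46, against -0.01 over all genes tested.

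Cacna1c, the main L-type pore in neurons, stood at 66.8 and 62.9 CPM in the control somata and at 44.3 and 41.2 CPM in the PTX somata. Both PTX libraries were below both controls, and the log2 fold change was -0.60 (SE 0.103, edgeR adjusted p = 0.0102). Cacna1g had 29.0 and 33.3 CPM in control and 18.7 and 18.9 CPM in PTX somata, a log2 fold change of -0.73 (SE 0.129, edgeR adjusted p = 0.0118). Cacna1h followed with 24.9 and 25.3 CPM against 16.7 and 17.5 CPM, a log2 fold change of -0.55 (SE 0.112, edgeR adjusted p = 0.0218). The libraries of the groups did not overlap for either T-type gene.

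Cacna1b, the N-type pore, went from 66.0 and 62.1 CPM to 46.2 and 41.5 CPM. The groups did not overlap, but the change of -0.55 (SE 0.139) missed the threshold (edgeR adjusted p = 0.0606). It passed with the replicate number as a block (edgeR adjusted p = 0.000128), the likelihood ratio test of edgeR (adjusted p = 0.0101) and DESeq2 (adjusted p = 0.0324). Upper quartile scaling (edgeR adjusted p = 0.0489), no filter (0.00221) and the somata libraries alone (0.0276) also called it, but library size only did not. Cacna1d, the second L-type pore, passed with the block (edgeR adjusted p = 0.124 without the block and 0.0104 with it). Cacna1d measured 31.0 and 28.7 CPM in control and 24.0 and 22.1 CPM in PTX somata, with a log2 fold change of -0.37 (SE 0.116). In all, 5 of the 8 genes were lower in both PTX somata libraries than in both controls, a pattern found in 25% of all tested genes.

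Cacna1a, the P/Q-type pore of presynaptic terminals, had 50.0 and 47.8 CPM in control and 50.3 and 50.2 CPM in PTX somata. Its log2 fold change of 0.04 (95% interval -0.22 to 0.30, edgeR adjusted p = 0.935) left room for a change of either sign. Cacna1i, the third T-type gene, had 19.3 and 17.6 CPM against 18.8 and 16.9 CPM, with a change of -0.05 (95% interval -0.38 to 0.29, edgeR adjusted p = 0.939). Cacna1e, the R-type pore, varied more between replicates, at 127.9 and 100.4 CPM against 107.9 and 85.7 CPM, and these groups overlapped (change -0.24, SE 0.187, edgeR adjusted p = 0.646).

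The somata calls were sensitive to single libraries. Leaving out 1 of the 4 somata libraries left 0 of the 8 genes called without control replicate 2, PTX replicate 1 or PTX replicate 2, and 1 (Cacna1g) without control replicate 1. The log2 fold changes of Cacna1c then stayed between -0.66 and -0.55. With library size as the only scaling, Cacna1g alone was called in somata.

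The same question was asked of the processes. There, 4 of the 8 genes were lower with PTX and none was higher, where 2.1% of all tested genes were called lower. The 4 were Cacna1c and all 3 T-type genes. The median log2 fold change of the 8 genes was -0.55, against -0.01 over all genes tested.

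Cacna1h stood at 32.3 and 28.7 CPM in control and 18.1 and 17.4 CPM in PTX processes, a log2 fold change of -0.78 (SE 0.124, edgeR adjusted p = 0.00794). Cacna1c fell from 39.7 and 39.3 CPM to 25.03 and 27.4 CPM (change -0.59, SE 0.115, edgeR adjusted p = 0.0203). Cacna1g fell from 27.9 and 22.2 CPM to 16.1 and 15.99 CPM (change -0.64, SE 0.148, edgeR adjusted p = 0.0391). For each of these genes the lower control library was above the higher PTX library.

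Cacna1i had 59.9 and 43.3 CPM in control processes and 33.2 and 30.7 CPM in PTX processes, with a log2 fold change of -0.69 (SE 0.156, edgeR adjusted p = 0.0369). The 2 control libraries were further apart than the 2 PTX libraries, yet the groups did not overlap. Without control replicate 1, the higher library, the change was -0.44 (edgeR adjusted p = 0.229).

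Cacna1b had 50.1 and 39.9 CPM in control and 35.6 and 28.0 CPM in PTX processes, a change of -0.51 (SE 0.153) that missed the threshold (edgeR adjusted p = 0.108). It passed with the replicate number as a block (edgeR adjusted p = 0.00284), the likelihood ratio test of edgeR (adjusted p = 0.0435) and no filter (edgeR adjusted p = 0.0176), but not with DESeq2. Cacna1d had 16.5 and 14.3 CPM against 13.0 and 12.4 CPM, with a change of -0.28 (SE 0.142, edgeR adjusted p = 0.354). Cacna1a had 50.0 and 41.9 CPM against 48.8 and 42.4 CPM, and its change of -0.01 (95% interval -0.29 to 0.26, edgeR adjusted p = 0.979) was again near 0. Cacna1e overlapped between the groups, at 55.2 and 44.9 CPM against 49.6 and 33.7 CPM (change -0.27, SE 0.205, edgeR adjusted p = 0.579). Its change moved widely with single libraries, from -0.57 without PTX replicate 1 to -0.0138 without PTX replicate 2 in processes, and from -0.42 without PTX replicate 1 to -0.0571 without control replicate 1 in somata.

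In processes 6 of the 8 genes had both PTX libraries below both controls, a pattern found in 22.3% of all tested genes. No gene was called without control replicate 1 or PTX replicate 2, 1 (Cacna1h) without PTX replicate 1, and 2 (Cacna1c and Cacna1h) without either somata control replicate. In the fit of the 4 process libraries alone, 1 gene (Cacna1h) was called, and with library size as the only scaling 2 were (Cacna1h and Cacna1i).

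**Figure D2:**
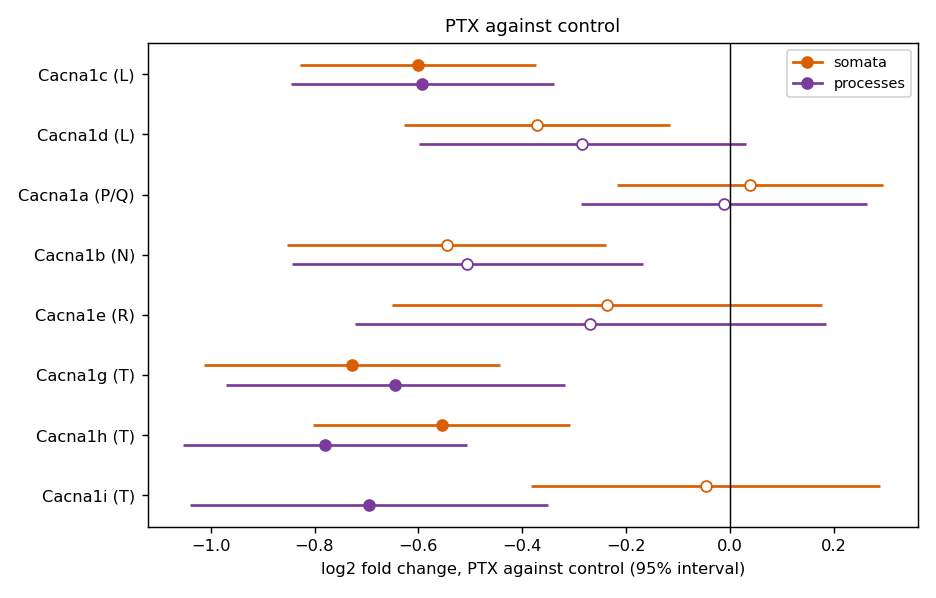
Log2 fold change of PTX against control (x axis) for each pore subunit gene in somata and in processes, with 95% intervals as bars. Filled points were called at an adjusted p under 0.05, and the points of Cacna1a lie at 0.04 and -0.01, near 0 in both compartments.

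Averaged over both compartments, 5 of the 8 genes were lower with PTX, where 5% of all tested genes were called lower. Cacna1c (edgeR adjusted p = 0.000913), Cacna1g (edgeR adjusted p = 0.00165) and Cacna1h (edgeR adjusted p = 0.000778) were joined by Cacna1b (edgeR adjusted p = 0.0093) and Cacna1d (edgeR adjusted p = 0.047). Cacna1i missed the threshold (edgeR adjusted p = 0.0568) and passed with the replicate block (edgeR adjusted p = 0.00126), as did Cacna1e (edgeR adjusted p = 0.312 without the block and 0.00803 with it). The Cacna1d call was lost with DESeq2 (adjusted p = 0.139) and when any 1 library other than process control replicate 2 was left out (edgeR adjusted p from 0.0861 to 0.155). Cacna1a was not called in either fit (edgeR adjusted p = 0.952 without the block).

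Whether PTX acted differently in the compartments was tested with the interaction, the PTX change in processes minus that in somata. By the quasi-likelihood test of edgeR, 0 of the 8 genes were called, as were 0% of all genes, of which 572 had an unadjusted p under 0.05. DESeq2 and the likelihood ratio test of edgeR called none of the 8 either. At an unadjusted p under 0.05 there was 1, Cacna1i, with a difference of -0.65 (SE 0.218, 95% interval -1.13 to -0.17, unadjusted p = 0.013 from edgeR, edgeR adjusted p = 1). The Cacna1i call in processes and its absence in somata are therefore not shown to differ. Intervals of the difference for the other genes all included 0, from -0.33 to 0.35 for Cacna1c and from -0.65 to 0.58 for Cacna1e.

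Markers of cell types moved with PTX too, and their part in the channel results was not tested. The summed level of 4 excitatory markers was 416 to 432 CPM in control and 275 to 297 CPM in PTX somata, with Neurod6 and Camk2a called lower, and 722 to 967 against 510 to 512 CPM in processes. In processes Neurod6 and Camk2a were again called lower, while Slc17a7, the vesicular glutamate transporter, was called higher. Slc17a7 was not called in somata (log2 fold change -0.33). Slc17a6, the remaining excitatory marker, went against the sums in both compartments but was not called (log2 fold change 0.50 in somata and 1.10 in processes). The summed level of 5 inhibitory markers was 238 to 337 CPM in control and 413 to 542 CPM in PTX somata, and 134 to 173 against 218 to 285 CPM in processes. Of these, Gad1 and Gad2, the enzymes of GABA synthesis, were called higher in somata (log2 fold change 0.82 and 0.92) and Gad2 in processes (0.92). Slc32a1, the vesicular GABA transporter, was at 28.7 CPM in control and 28.2 CPM in PTX somata, Sst was not called, and Pvalb stayed under the filter. Of 6 neuronal markers, 1, Rbfox3, was called lower in somata, where the sums were 1810 to 2060 CPM in control and 1650 to 1810 CPM in PTX. In processes the neuronal sums were 5450 and 5130 CPM in control and 4600 and 3910 CPM with PTX, with none of the 6 called. The astrocyte sums were 3460 and 3910 CPM against 2600 and 3620 CPM in somata and 13900 and 12400 CPM against 10500 and 11800 CPM in processes, with 1 of 6 markers, Gja1, called lower in somata (edgeR adjusted p = 0.0215).

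The third comparison, processes against somata of control cultures, asked where the channel mRNAs lay. Of the 8 genes, 4 were lower in processes, where 21.9% of all tested genes were called lower, and 1 was higher, where 25.8% were. The lower genes were Cacna1b, Cacna1c, Cacna1d and Cacna1e, and the higher one was Cacna1i.

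Cacna1i was 2.8-fold higher in processes, from 19.3 and 17.6 CPM in somata to 59.9 and 43.3 CPM in processes (log2 fold change 1.49, SE 0.154, edgeR adjusted p = 2.39e-05). With library size as the only scaling its sign reversed to -0.34, when the median of all genes moved from -0.05 to -1.86. It stayed called higher with upper quartile scaling and with counts outside the mitochondrial genome as library size. Cacna1e was the furthest in the other direction, with 127.9 and 100.4 CPM in somata and 55.2 and 44.9 CPM in processes (change -1.19, SE 0.197, edgeR adjusted p = 0.000633). The L-type genes were also lower in processes, Cacna1d with a change of -0.95 (SE 0.128, edgeR adjusted p = 0.000152) and Cacna1c with one of -0.71 (SE 0.107, edgeR adjusted p = 0.000328). Cacna1b changed by -0.51 (SE 0.144, edgeR adjusted p = 0.0142), a call lost without somata control replicate 1 (edgeR adjusted p = 0.0692) or process control replicate 2 (edgeR adjusted p = 0.113).

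Cacna1a, with a change of -0.09 (SE 0.121, edgeR adjusted p = 0.567), did not differ beyond the spread under TMM scaling, and was called lower (-0.55, edgeR adjusted p = 0.00224) with counts outside the mitochondrial genome as library size. Cacna1g (-0.31, SE 0.135) and Cacna1h (0.28, SE 0.115) missed the threshold in opposite directions (edgeR adjusted p = 0.0784 and 0.0635) and passed it with the replicate block (edgeR adjusted p = 0.0299 and 0.0303). Cacna1g was also called lower with upper quartile scaling (edgeR adjusted p = 0.00763) and with at least 10 reads in every library (edgeR adjusted p = 0.0357). So it was with counts outside the mitochondrial genome as library size (edgeR adjusted p = 0.000521). The sign of Cacna1h depended on scaling, being -0.18 with counts outside the mitochondrial genome as library size and -1.53 with library size only. Astrocyte markers, which summed to 3460 and 3910 CPM in control somata and 13900 and 12400 CPM in control processes, differed in the same comparison. Gfap and S100b were called higher in processes, but Slc1a3 and Gja1 were called lower. The part of these markers in the channel results was not tested.

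In PTX cultures the same 4 genes were lower in processes, where 24% of all tested genes were called lower, and Cacna1i was again higher, where 25.7% were. Cacna1i was 1.79-fold higher there (log2 fold change 0.84, SE 0.156, edgeR adjusted p = 0.00125), but -0.99 with library size only. With the other 2 scalings named above for Cacna1i it stayed called higher. Cacna1e (-1.22), Cacna1d (-0.87), Cacna1c (-0.71) and Cacna1b (-0.47) were lower, with edgeR adjusted p values of 0.000521, 0.000319, 0.000401 and 0.022. The Cacna1b call was lost without somata PTX replicate 1 (edgeR adjusted p = 0.12) or process PTX replicate 2 (edgeR adjusted p = 0.182). Cacna1h measured 16.7 and 17.5 CPM in PTX somata and 18.1 and 17.4 CPM in PTX processes (change 0.06, SE 0.121, edgeR adjusted p = 0.713, but -0.12 with upper quartile scaling). Cacna1a (-0.14, SE 0.12) and Cacna1g (-0.23, SE 0.142) were not called (edgeR adjusted p = 0.354 and 0.202). Both were called lower with upper quartile scaling (edgeR adjusted p = 0.0431 and 0.0294). The same held with counts outside the mitochondrial genome as library size (edgeR adjusted p = 0.00131 and 0.00146).

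**Figure D3:**
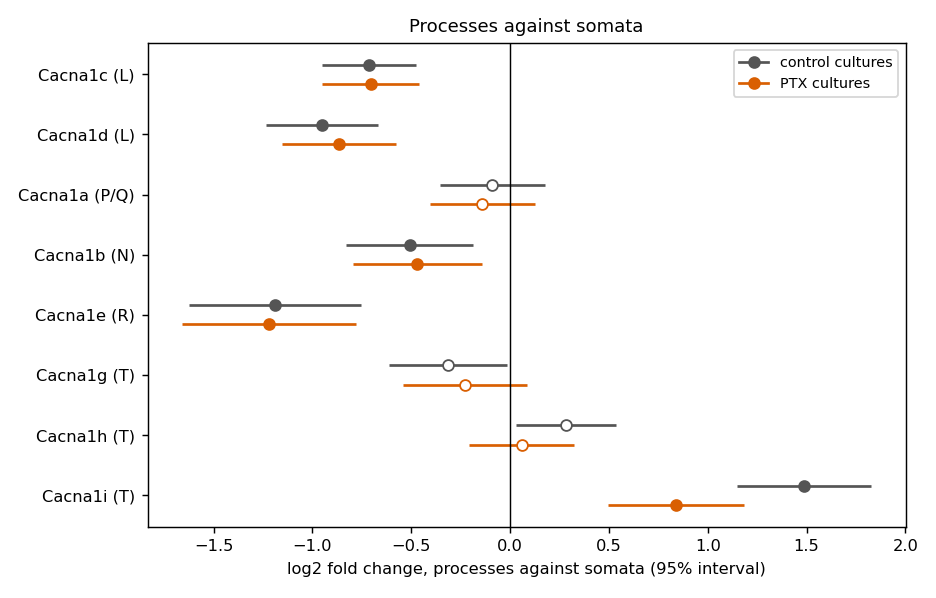
Log2 fold change of processes against somata (x axis) for each pore subunit gene in control and in PTX cultures, with 95% intervals as bars and filled points for calls. Cacna1i is the only one of the 8 genes called higher in processes, at 1.49 in control and 0.84 in PTX cultures under TMM scaling. Both signs reverse with library size only, and both calls stay with upper quartile scaling and with counts outside the mitochondrial genome as library size.

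Because the scale between compartments was uncertain, the make-up of the family was also read within each library, as each type's share of the reads of the 8 genes, which needs no scaling. Reads were not divided by gene length, so only shares of the same type are compared. T-type genes held 17.6% and 20.1% of the reads in control somata, 16.6% and 18.1% in PTX somata, 36.2% and 34.3% in control processes and 28.2% and 30.8% in PTX processes. Every process library was above every somata library. Of the 3 T-type genes, only Cacna1i was called higher in processes under TMM scaling. In control cultures its log2 fold change was 1.49, against 0.28 for Cacna1h and -0.31 for Cacna1g. The mean was 32.4% ± 3.6 (SD, n = 4) in processes and 18.1% ± 1.5 (SD, n = 4) in somata, a difference of 14.3 percentage points (two-sided exact permutation test, p = 0.0286, the smallest that 4 against 4 libraries allow, and 0.0715 after Benjamini-Hochberg adjustment over all 10 share tests, 5 types in 2 comparisons).

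L-type genes held 20.9% to 24.2% of the reads in somata and 15.9% to 19.6% in processes, a difference of -4.69 points (two-sided exact permutation test, p = 0.0286, adjusted 0.0715). No share test passed the threshold after adjustment. Between PTX and control libraries the T-type share differed by -3.66 points (exact permutation test, p = 0.543, adjusted 0.603) and the L-type share by -1.72 points (exact permutation test, p = 0.457, adjusted 0.571). These comparisons pooled both compartments and ignored the pairing, and the share tests between compartments likewise pooled both treatments and ignored it. Within compartment and replicate number, the T-type share was lower with PTX in 4 of 4 pairs, by -1.07 and -2.01 points in somata and -8.07 and -3.49 points in processes. The L-type share was also lower in 4 of 4 pairs, by -2.68 points in both somata pairs and -1.08 and -0.44 points in processes. For each type the exact test of the signs of the 4 pairs gave p = 0.125, the smallest it allows.

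The tests of the other 3 types were not planned. The P/Q share of Cacna1a was 12.1% and 12.7% in control somata and 15.4% and 17.1% in PTX somata, then 15.1% and 15.3% in control processes and 20.4% in both PTX libraries. Within each compartment it was higher in both PTX libraries than in both controls, and the pooled difference was 4.55 points (two-sided exact permutation test, p = 0.0286, adjusted 0.0715). The R share of Cacna1e was 26.6% to 33.0% in somata and 16.2% to 20.7% in processes, a difference of -12.4 points (exact permutation test, p = 0.0286, adjusted 0.0715). The N share of Cacna1b was between 13.5% and 16.4%, with a PTX difference of -1.35 points (exact permutation test, p = 0.0571, adjusted 0.114). The other 3 tests, P/Q and N between compartments and R between treatments, gave p from 0.171 to 0.657 (exact permutation test).

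**Figure D4:**
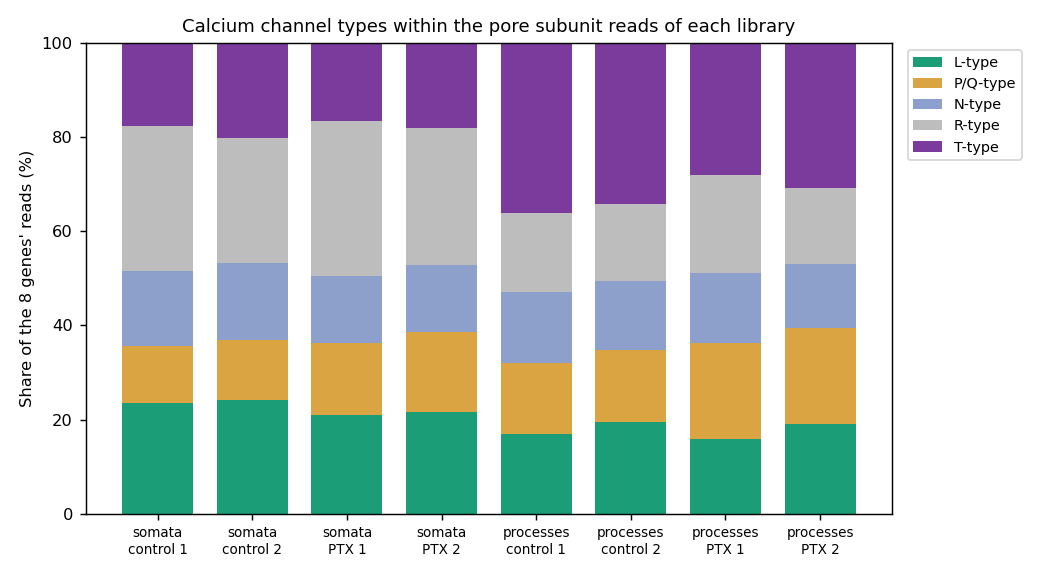
Share of the reads of the 8 pore subunit genes held by each channel type (y axis, percent) in each library (bars). The T-type share is 28.2% to 36.2% in the 4 process libraries and 16.6% to 20.1% in the 4 somata libraries.

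A ratio of 2 genes within a library is likewise free of scaling. Cacna1c gave 1.34 and 1.31 reads for each read of Cacna1a in control somata and 0.881 and 0.822 in PTX somata. In processes the ratio was 0.795 and 0.938 in control and 0.513 and 0.645 with PTX. It was lower in both PTX libraries than in both controls of the same compartment. Cacna1c was called lower with PTX in both compartments and Cacna1a in neither. The lower ratio follows from those changes and is no separate evidence of them. Cacna1i gave 0.774 and 0.698 reads per read of Cacna1h in control somata and 1.13 and 0.966 in PTX somata. In processes the ratio of Cacna1i to Cacna1h was 1.85 and 1.51 in control and 1.83 and 1.76 with PTX.

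RefSeq promoter sequences (build GRCr8, 300 bases around the annotated start) were matched for 5 of the 8 genes. They are shown for Cacna1c, which was lower with PTX in both compartments, and Cacna1a, which was called in neither. Both lie on the minus strand, Cacna1c at chr4:154051699-154051998 and Cacna1a at chr19:40650419-40650718. Capitals mark the GC box, GGGCGG searched on both strands.
Cacna1c: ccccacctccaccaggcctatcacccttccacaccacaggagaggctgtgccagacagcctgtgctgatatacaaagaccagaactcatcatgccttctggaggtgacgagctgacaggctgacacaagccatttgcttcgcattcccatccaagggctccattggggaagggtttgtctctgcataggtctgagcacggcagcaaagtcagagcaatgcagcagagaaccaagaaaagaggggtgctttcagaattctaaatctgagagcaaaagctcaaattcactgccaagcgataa
Cacna1a: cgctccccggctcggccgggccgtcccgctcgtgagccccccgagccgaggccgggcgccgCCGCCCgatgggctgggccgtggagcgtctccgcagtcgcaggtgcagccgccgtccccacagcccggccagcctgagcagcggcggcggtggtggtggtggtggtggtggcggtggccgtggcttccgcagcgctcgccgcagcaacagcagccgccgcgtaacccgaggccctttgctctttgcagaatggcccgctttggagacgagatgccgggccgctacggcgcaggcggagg
The Cacna1a window was 76.0% G and C and held 1 GC box, and the Cacna1c window was 51.7% G and C and held 0. A GC box was present in 33.1% of 33469 promoters of this length. Cacna1d had 10 in its window, Cacna1b 3 and Cacna1e 0. Overlapping matches were each counted, and several of those of Cacna1d overlap. The cAMP response element TGACGTCA was in none of the 5 windows and in 1.8% of all promoters. These are matches of letters in short windows around 1 annotated start and are no evidence of binding or its absence.

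Other genes linked to calcium channels were read from lists. The tested auxiliary subunits include Cacng2, Cacng3, Cacng4, Cacng5, Cacng7 and Cacng8, which are better known as auxiliary proteins of AMPA receptors. Of 13 tested auxiliary subunits, 1 was lower with PTX in somata and 2 in processes, with none higher, where 1.5% and 2.1% of all tested genes were called lower and 2.09% and 1.64% higher. Cacnb3, a beta subunit that helps bring the pore to the membrane, was lower in both compartments (log2 fold change -0.68, SE 0.137, edgeR adjusted p = 0.0214 in somata and -1.02, SE 0.139, edgeR adjusted p = 0.00444 in processes). Cacng2, better known as the AMPA receptor auxiliary protein stargazin, was lower in processes (-1.11, SE 0.195, edgeR adjusted p = 0.0132). The median change of the 13 was 0.07 in somata and -0.11 in processes.

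Of 17 tested channel-binding regulators, 3 were higher and 1 lower with PTX in somata, and 2 were higher in processes, against 2.09% higher and 1.5% lower of all tested genes in somata and 1.64% higher in processes. Rem2 and Gem, small GTPases of the RGK family known to inhibit some types of these channels, were higher in somata (log2 fold change 1.13, SE 0.186, edgeR adjusted p = 0.00861 and 0.92, SE 0.196, edgeR adjusted p = 0.0273). Gem was also higher in processes (1.08, SE 0.236, edgeR adjusted p = 0.0334). So was Cabp1, a calmodulin-like calcium-binding protein (0.86, SE 0.163, edgeR adjusted p = 0.0187). Akap5, a scaffold that ties kinases and calcineurin to L-type channels, was lower in somata (-0.83, SE 0.136, edgeR adjusted p = 0.00844).

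Of 9 calcium-activated partners, 2 were lower with PTX in somata and 1 in processes, against 1.5% and 2.1% of all tested genes. Ryr2, the intracellular calcium release channel, was lower in both (log2 fold change -0.88, SE 0.113, edgeR adjusted p = 0.00234 in somata and -0.77, SE 0.122, edgeR adjusted p = 0.00779 in processes). Kcnmb4, a beta subunit of the BK potassium channel, was lower in somata (-1.05, SE 0.223, edgeR adjusted p = 0.027). In control cultures, 4 auxiliary subunits were higher and 5 lower in processes than in somata, 9 regulators higher and 6 lower, and 1 partner higher and 5 lower, where 25.8% of all tested genes were called higher and 21.9% lower. None of the 3 lists had a gene called for the interaction by edgeR, nor any at an unadjusted p under 0.05.

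The genes most like each member other than Cacna1b were sought by Pearson's r of log2 CPM over the 8 libraries over the 10208 genes averaging 5 CPM or more. All such values share the same libraries and the compartment difference, and are a description only. Cacna1c was most like Pak7 (r = 0.996), Cacna1d most like Clmp (0.996), Opcml (0.996) and Grin2b (0.994), an NMDA receptor subunit. The nearest gene was Fam227a for Cacna1e (0.994), Kcnk9, a leak potassium channel, for Cacna1g (0.98), Ubqln2 for Cacna1h (0.982) and Fam57b for Cacna1i (0.993). Cacna1a had the lowest such value, 0.971 with Atp6v0e2. Among the members, Cacna1d and Cacna1e were most alike (r = 0.968), and Cacna1i had its lowest value with Cacna1e (r = -0.735).

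Reads of overlapping genes are of uncertain origin, since the strand setting of the counting is not given in the sources used here. In the RefSeq annotation of build GRCr8, which is not the build used for the counts, Cacna1c overlaps the coding gene Dcp1b and Cacna1h overlaps Tpsg1. Cacna1a, Cacna1c, Cacna1d and Cacna1i overlap long non-coding RNA genes and Cacna1e a pseudogene, all of them absent by symbol from the count table. Cacna1b and Cacna1g overlap none.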

How the data were processed

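Somata and process RNA of rat hippocampal neurons treated with PTX or vehicle was sequenced, with 2 libraries for each of 4 conditions (totals 12290890 to 18455662 counts). The sample titles gave the conditions and replicate numbers. The authors aligned the reads to the rat genome build Rnor_6.0 (the submitters' processing notes name STAR, the study's methods Subread), counted them per gene with featureCounts and deposited whole-number counts for 28909 symbols, not normalized. Tables of the authors' own PTX comparisons hold fold changes and p-values and were not used. No column of per-sample values was left unmatched.

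The low-count filter asked for over 20 reads in 2 or more libraries and passed 14309 genes. All 8 libraries were fitted together in edgeR 4.0.16 (R 4.3.3) with TMM factors, 1 coefficient per condition and the quasi-likelihood test. The study used a likelihood ratio test, which was an alternative here. P-values were adjusted by Benjamini-Hochberg within each contrast at a threshold of 0.05. SE was derived as the log2 fold change over the root of the F statistic, and log2 CPM used a prior count of 2. The shares of the 5 types were compared by exact permutation over libraries, with the T-type and L-type tests planned and the others added. The code was tested on simulated data.

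All 8 members are named, with at most 3 called genes of lowest p per list and contrast. The gene most like Cacna1b is not reported here. Members and lists were chosen with earlier results of these data known. Transcript lengths were not used here, so levels are not divided by length.

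The main fit and the permutation tests of the shares did not use the replicate numbers. They were treated as pairing the libraries only in the replicate block and in the share differences within pairs. For every pair of conditions, the gene-wise differences of the 2 replicates were correlated, with r from 0.274 to 0.54. The labels do not say what the numbers mark. Results were recomputed with the likelihood ratio test, DESeq2 1.42.0, other scalings and filters, a fit of only the libraries compared, the replicate block and leaving out each library.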

Additional observations from a re-analysis of the deposited data

How the results depend on the processing

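With 2 libraries per condition, the PTX calls rested on single libraries. Leaving out 1 library gave 0 to 4 called genes in somata and 0 to 3 in processes, and the lone sample of a group is then assumed to vary like the other groups. With library size only, 1 gene was called for PTX in somata and 2 in processes, and all 8 were called lower in processes in control and in PTX cultures. Scaling by counts outside the mitochondrial genome, chosen after seeing the data, called 8 in PTX cultures. The replicate block called 5 in somata, and the fit of only the libraries compared called 1 in processes. Under the replicate block the T-type and L-type shares differed by 14.3 and -4.69 points with p = 0.125, the smallest that exact sign changes of 4 pairs allow. Beside the calls given in the report, the block changed no other call of a member.

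Signs reversed as follows. With library size only, Cacna1h (-1.53) and Cacna1i (-0.34) turned lower in control processes, as did Cacna1h (-1.77) and Cacna1i (-0.99) in PTX processes, the PTX change of Cacna1i in somata was 0.0198, that of Cacna1a in processes 0.0397, and the interaction of Cacna1c -0.0074. With counts outside the mitochondrial genome, Cacna1h was at -0.18 in control and -0.40 in PTX processes, and Cacna1a at 0.0051 for PTX in processes (0.0007 with only the libraries compared). Cacna1h was at -0.12 in PTX processes with upper quartile scaling and at -0.0078 with at least 10 reads in every library. When 1 library was left out, Cacna1a ranged from -0.0048 to 0.0655 for PTX in somata, -0.13 to 0.12 in processes, -0.0478 to 0.0791 averaged and -0.22 to 0.0321 for control processes against somata. Cacna1i ranged from -0.13 to 0.0239 for PTX in somata. The interaction ranged from -0.17 to 0.0819 for Cacna1a, -0.14 to 0.21 for Cacna1b, -0.0591 to 0.0691 for Cacna1c, -0.0118 to 0.19 for Cacna1d, -0.33 to 0.22 for Cacna1e and -0.0709 to 0.26 for Cacna1g. The cause was not tested.

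Over all genes, PTX calls numbered 513 in somata, 535 in processes and 1431 averaged, against 972 and 949 with the likelihood ratio test (somata and processes), 2002, 1601 and 3009 with the replicate block, 1141, 1129 and 2153 without a filter, and 299 in the process libraries alone. The interaction gave 0 calls, 4 with the likelihood ratio test, 4 with DESeq2, 10 without a filter and 15 with the block. In control cultures 3688 of 6823 calls were higher in processes, but 191 of 13462 with library size only, 2750 of 7454 with upper quartile scaling and 1935 of 8992 with counts outside the mitochondrial genome. In PTX cultures the numbers were 3680 of 7121, then 181 of 13499, 2904 of 7672 and 1958 of 9062. The shares without length scaling are those of the report, since no lengths were used. Over the 8 genes and all comparisons, 46 gene results kept direction and side of the threshold with DESeq2, where 1 newly passed and 1 no longer did, and 45 with the likelihood ratio test, where 3 newly passed.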
